A study of Mus musculus with 10 samples.

Results

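Most TREM receptors are cell surface proteins of myeloid cells that carry no signalling motif of their own and depend on small adaptor proteins in the membrane. Here 10 genes of this receptor system were followed in hippocampal microglia: the receptors *Trem2*, *Trem1*, *Trem3* and *Treml2*, the adaptors *Tyrobp* and *Hcst*, the kinases *Syk* and *Btk*, the exchange factor *Vav1* and the phosphatase *Ptpn6*. They were chosen by symbol, with earlier results of these data known, and all 10 were found among the 55453 genes of the count table. RNA was sequenced from DAPI-negative CD45int CD11b+ cells sorted from the hippocampi of female 3xTg mice, an Alzheimer's disease model, in 10 libraries. The study asked whether glatiramer acetate (GA), a synthetic copolymer of amino acids (Glu, Lys, Ala and Tyr in no fixed order) given to patients with multiple sclerosis, changes microglia in these animals. In both groups, every mouse was a retired breeder older than 15 months from a homozygous colony. All mice carried the transgenes of the model, among them human APP with the Swedish change and mutant human MAPT, with expression driven by the neuronal Thy1.2 promoter. The 5 GA libraries came from mice given weekly subcutaneous GA at 0.1 mg for about 8 weeks, and the 5 PBS libraries came from mice given the vehicle alone, with 2 injections in the first week of either treatment by the methods. Non-transgenic microglia were not analysed here, so that the comparison is of treatment within 1 genotype.

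TREM2 binds lipids, lipoproteins and amyloid β, and rare variants of the human gene raise the risk of Alzheimer's disease. It has a charged residue in its membrane span that pairs with TYROBP (also called DAP12), whose ITAM motif is phosphorylated by Src family kinases and then recruits SYK. SYK in turn acts through BTK, VAV1 and phospholipase Cγ, while HCST (DAP10) recruits PI3 kinase. PTPN6 (SHP-1) removes phosphates added by these kinases.

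Total counts per library were 32332185 to 38764643, and the 10 genes took 0.397% to 0.467% of them. Library titles join a prefix and a number: the PBS libraries (PBS 1 to PBS 5) carry the prefix 388, GA 1 and GA 2 the prefix 394, and GA 3, GA 4 and GA 5 the prefix 400. The prefix is not explained, and since no prefix holds both treatments, prefix and treatment cannot be told apart. The labels do not say that each library is a separate animal, so the p-values measure only the spread between these libraries. The microglial markers *Csf1r* and *Cx3cr1* ran from 15418 to 18841 and from 6601 to 7847 normalised CPM over the 10 libraries. Markers of NK and T cells summed to at most 0.794 CPM and those of neurons to at most 1.75 CPM in any library, and *Ncr1* had 0 reads throughout. Sums were higher for B cell markers (541 to 675 CPM, with *Ighm* at 590 CPM on average) and astrocyte markers (245 to 353 CPM, with *Slc1a3* at 281 CPM and *Aqp4* at most 18 reads). Oligodendrocyte markers summed to 175 to 216 CPM, with *Cnp* at 102 CPM and *Mog* at most 11 reads, and endothelial markers to 34.4 to 50.2 CPM, with *Cldn5* at most 8 reads. Neutrophil markers were less even and are given beside the genes they moved with. In bulk RNA, fewer cells of a type and less RNA per cell cannot be told apart.

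No difference between GA and PBS microglia was detected in the 8 receptor system genes with enough reads for the main test. *Trem1* and *Trem3* had too few reads to pass edgeR's filter on low counts, and their values come from the same fit run without it. With edgeR's quasi-likelihood test and Benjamini-Hochberg adjustment, 0 of the 8 had an adjusted p under 0.05, beside 0% of the 14481 genes tested. At an unadjusted p under 0.05, 0 of the 8 passed, beside 5.75% of all genes (833 genes). The GA and PBS libraries did not overlap for 0 of the 8, beside 0.891% of all genes (129 genes). Of the 8, 3 were higher and 5 lower in GA, with a median log2 fold change of -0.02, beside 0.00020 over all genes tested.

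**Figure D1:**
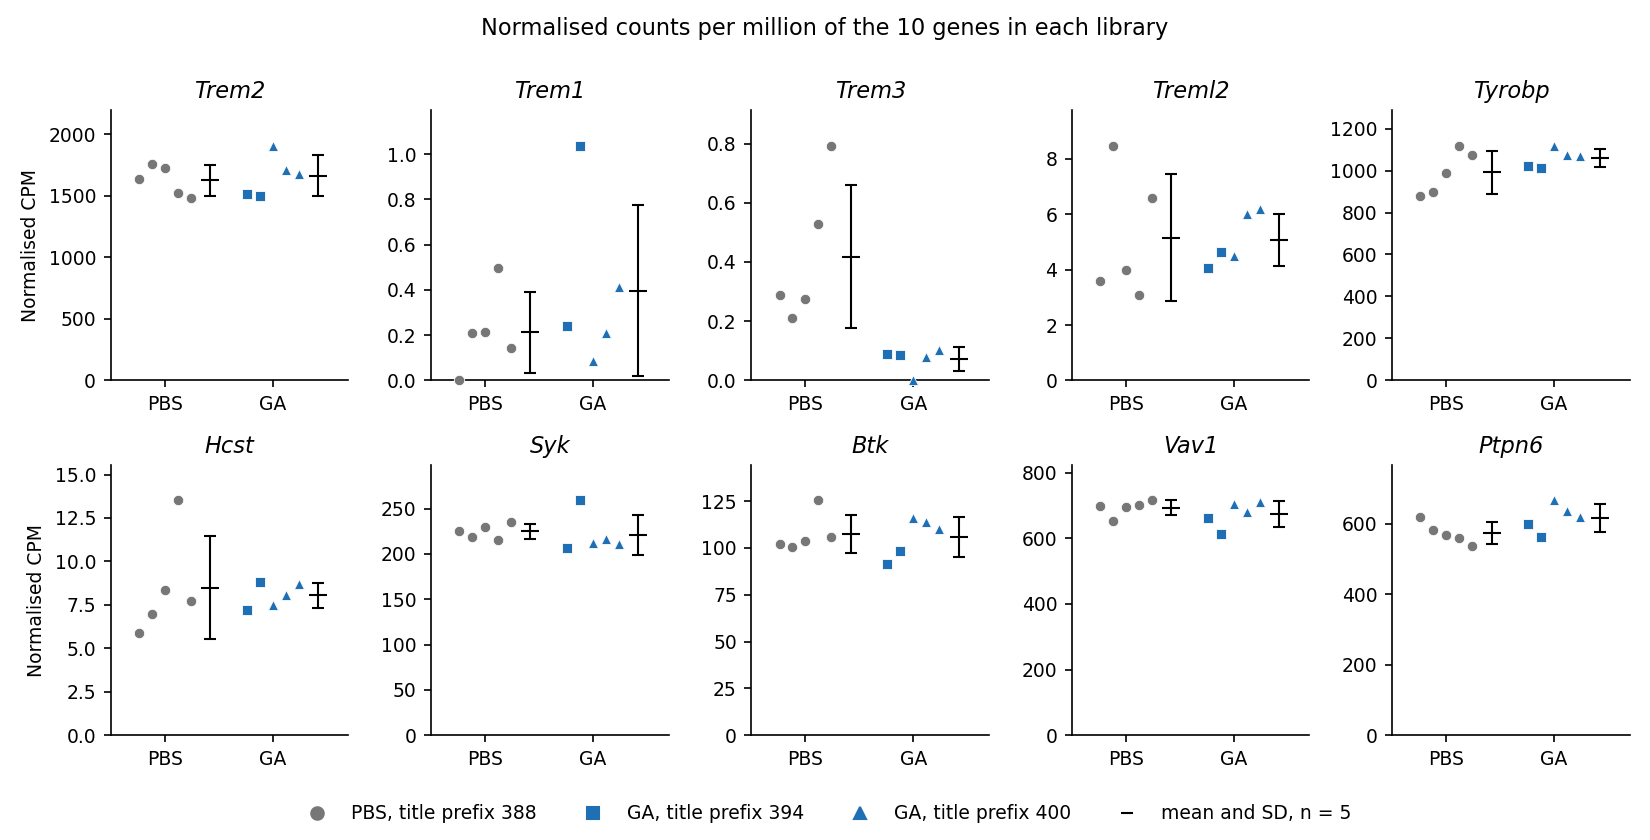
Normalised CPM (vertical axes, from 0, scaled for each gene) of the 10 genes in the 5 PBS (grey) and 5 GA (blue) libraries, with marker shape by title prefix and mean ± SD beside each group. The groups overlap in every panel except that of Trem3, where all 5 GA libraries lie at or below 0.103 CPM and all 5 PBS libraries at or above 0.209 CPM.

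On the mouse genome (GRCm38, GENCODE M21 gene models), *Trem2* (ENSMUSG00000023992.14) lies at chr17:48346401-48354147 on the plus strand, in a cluster that runs over 134 kb from *Trem1* to *Treml1*. *Trem3*, *Treml4* and *Treml2* lie in the same span. *Trem2* stood at 1634, 1759, 1727, 1519 and 1478 CPM in PBS 1 to PBS 5. In GA 1 to GA 5 it stood at 1516, 1500, 1907, 1708 and 1674 CPM. The highest library was GA 3, but GA 1 and GA 2 were below 4 of the PBS libraries, and the groups overlapped over most of their range. The means were 1623 ± 124 CPM (SD, n = 5) in PBS and 1661 ± 166 CPM (SD, n = 5) in GA. This gave a log2 fold change of 0.03 (SE 0.08, 95% interval -0.13 to 0.19, edgeR adjusted p = 0.974), an interval of -8.51% to 14.4%. *Trem2* was among the most abundant transcripts, above 99.7% of the genes tested, with at least 49032 reads in each library.

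Within the GA group, 5 of the 8 tested genes (*Trem2*, *Tyrobp*, *Btk*, *Vav1* and *Ptpn6*) had all normalised CPM of prefix 400 above those of prefix 394, while 27.7% of all genes tested did not overlap between the prefixes in either direction. For *Trem2*, the libraries of prefix 394 (1516 and 1500 CPM) were both below those of prefix 400 (1674 to 1907 CPM), a log2 difference of 0.23 (SE 0.09, unadjusted p = 0.0323, edgeR adjusted p = 0.839) with 400 the higher. Of the 8 tested genes, 2 had an unadjusted p under 0.05 for the prefix, *Trem2* and *Btk*, beside 5.48% of all genes. None of the 8 had an adjusted p under 0.05, beside 0.0138% of all genes. Against PBS, the log2 fold change of *Trem2* was -0.10 with the prefix 394 libraries alone and 0.12 with the prefix 400 libraries alone.

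The other receptors of the cluster were present at far lower levels. *Treml2* (chr17:48299498-48312533), a family member with a longer cytoplasmic tail found on B cells and myeloid cells, had 3.59, 8.49, 4.0, 3.10 and 6.60 CPM in PBS 1 to PBS 5. It had 4.08, 4.63, 4.51, 6.0 and 6.17 CPM in GA 1 to GA 5. All 5 GA values lay inside the PBS range, and the PBS libraries spread more widely, with PBS 2 and PBS 5 the highest. Its log2 fold change was -0.02 (SE 0.27, 95% interval -0.60 to 0.55, edgeR adjusted p = 0.996), so that a change of up to 47% upwards or 34% downwards lies within the interval. *Treml1*, whose product is known from platelets, had 2.01 ± 0.77 CPM in PBS and 1.80 ± 0.38 CPM in GA (SD, n = 5 each; log2 fold change -0.16, edgeR adjusted p = 0.970). *Treml4*, a receptor of splenic macrophages and dendritic cells, had 5.69 ± 1.12 and 4.72 ± 1.55 CPM (log2 fold change -0.27, edgeR adjusted p = 0.928). These 2 were all that could be tested of the 5 further cluster genes looked for.

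*Trem1* (chr17:48232768-48246924), the amplifier of inflammatory responses on neutrophils and monocytes, was close to absent. It had 0, 7, 7, 16 and 5 reads in PBS 1 to PBS 5 and 8, 37, 3, 8 and 16 reads in GA 1 to GA 5. The 0 reads of PBS 1 allow up to 3 reads, or 0.0784 CPM, counting error alone considered. Only GA 2 (1.04 CPM) exceeded every PBS library, and the other GA libraries lay within the PBS range of 0 to 0.496 CPM. Its log2 fold change was 0.92 (95% interval -0.72 to 2.55, edgeR without a filter, adjusted p = 0.681), and with 1 library left out it ran from 0.19 (without GA 2) to 1.49 (without PBS 4).

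*Trem3* (chr17:48247777-48258841), a TYROBP-coupled activating receptor of mouse macrophages, was the exception among the 10 genes. It had 11, 7, 9, 17 and 28 reads in PBS 1 to PBS 5, or 0.288, 0.209, 0.275, 0.527 and 0.794 CPM. It had 3, 3, 0, 3 and 4 reads in GA 1 to GA 5, or 0.0899, 0.0842, 0, 0.0786 and 0.103 CPM, and the 0 of GA 3 allows up to 0.0866 CPM. Every GA library was below every PBS library, with 72 reads in all in PBS and 13 in GA. Without a filter, the groups did not overlap with GA lower for 0.301% of 27564 genes (83 genes). The log2 fold change was -2.48 (SE 0.75, 95% interval -4.05 to -0.92, unadjusted p = 0.00331), but with an edgeR adjusted p of 0.667 it did not pass the test. In that fit 0% of genes passed after adjustment and 6.90% had an unadjusted p under 0.05. Under the 17 alternatives the log2 fold change of *Trem3* stayed between -2.69 and -1.79, with adjusted p-values from 0.207 (DESeq2) to 0.925.

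Markers of neutrophils moved with *Trem3*. Their summed level (13 genes, led by *Ngp*, *Ltf* and *S100a9*) was 166, 44.0, 470, 299 and 389 CPM in PBS 1 to PBS 5. In GA 1 to GA 5 it was 44.7, 183, 17.6, 29.9 and 112 CPM. The mean of 13 of the 13 markers was higher in PBS, 0 of the 13 separated the groups completely, and none was at 0 in all libraries, although *Mpo* had at most 3 reads and *Elane* at most 13. *Ngp*, a neutrophil granule protein, had 69.6 CPM in PBS and 16.2 CPM in GA (log2 fold change -2.11, edgeR unadjusted p = 0.0123). The order of the libraries was not the same for the receptor and the markers: PBS 2 had more *Trem3* (0.209 CPM) than GA 2 (0.0842 CPM) with a lower marker sum (44.0 against 183 CPM). *Trem1* was highest in GA 2, whose marker sum was the highest of the GA group and above those of PBS 1 and PBS 2, but below those of PBS 3, PBS 4 and PBS 5. The CD45int gate of the sort is meant to leave out neutrophils, which carry high CD45. The part of neutrophil RNA in the values of *Trem3* and *Trem1* was not tested.

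**Figure D2:**
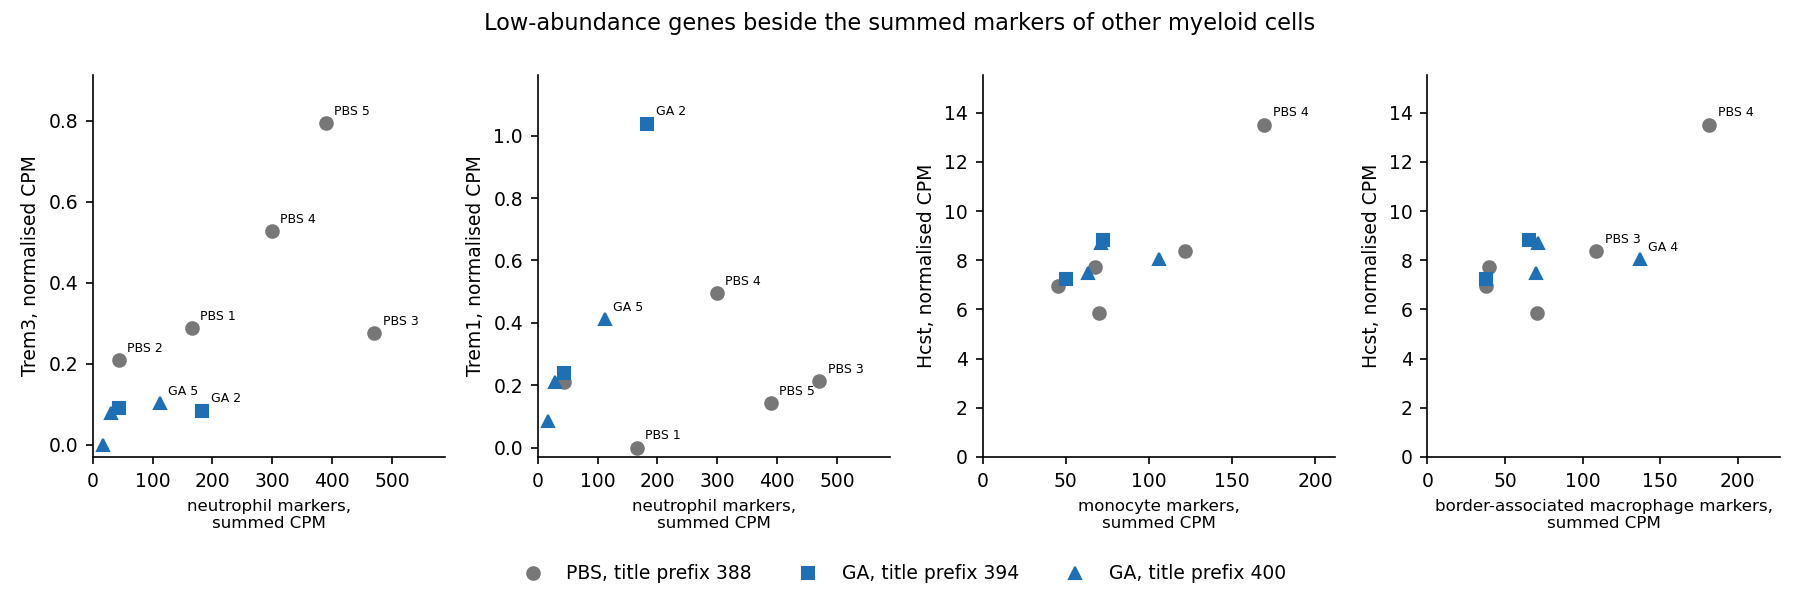
Normalised CPM of Trem3, Trem1 and Hcst (vertical axes) against the summed CPM of marker genes of neutrophils, monocytes or border-associated macrophages (horizontal axes), one point per library, with the points that stand clear of others labelled. All 5 GA libraries lie below all 5 PBS libraries in Trem3, GA 2 stands highest in Trem1, and PBS 4 stands highest in Hcst and in the sums of both other cell types.

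The adaptor *Tyrobp* (ENSMUSG00000030579.10, chr7:30413760-30417585) had 879, 899, 986, 1116 and 1075 CPM in PBS 1 to PBS 5. It had 1021, 1011, 1119, 1076 and 1069 CPM in GA 1 to GA 5. GA 3 was the highest library, PBS 1 and PBS 2 were the lowest, and PBS 4 and PBS 5 stood among the GA libraries. The means were 991 ± 104 and 1059 ± 44.2 CPM (SD, n = 5 each), with a log2 fold change of 0.10 (SE 0.07, 95% interval -0.06 to 0.25, edgeR adjusted p = 0.910), or -3.92% to 18.9%. With 1 library left out, the log2 fold change of *Tyrobp* ran from 0.056 (without PBS 1) to 0.14 (without PBS 4). *Tyrobp* was more abundant in CPM than 99.4% of the genes tested, although its exons span only 667 bases.

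*Hcst*, which encodes the adaptor DAP10, lies tail to tail with *Tyrobp* on the opposite strand (chr7:30417712-30419854), with 126 bases between their ends and no shared exon bases. It had 5.86, 6.96, 8.37, 13.5 and 7.74 CPM in PBS 1 to PBS 5, and 7.22, 8.84, 7.48, 8.05 and 8.70 CPM in GA 1 to GA 5. PBS 4 stood above the rest and all 5 GA libraries lay within the PBS range. The log2 fold change was -0.07 (SE 0.20, 95% interval -0.50 to 0.35, edgeR adjusted p = 0.975), and without PBS 4 it was 0.16. PBS 4 also had the highest summed markers of monocytes (169 CPM, against 45.6 to 122 CPM in the others) and of border-associated macrophages (182 CPM, against 37.9 to 137 CPM). The CD45int gate is meant to leave out cells with high CD45, such as monocytes that have entered the brain. The part of both cell types in the *Hcst* value of PBS 4 was not tested.

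*Syk*, the kinase that docks on the phosphorylated ITAM, had 226, 219, 230, 215 and 236 CPM in PBS 1 to PBS 5. It had 206, 259, 212, 216 and 211 CPM in GA 1 to GA 5. GA 2 was the highest library of all, while 3 of the other GA libraries were below every PBS library. GA and PBS differed by a log2 fold change of -0.03 (SE 0.07, 95% interval -0.18 to 0.12, edgeR adjusted p = 0.975). With 1 library left out, this ran from -0.09 (without GA 2) to -0.0032 (without GA 1).

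*Btk*, a Tec family kinase that activates phospholipase Cγ, had 102, 100, 103, 125 and 106 CPM in PBS 1 to PBS 5, and 91.2, 98.6, 116, 114 and 110 CPM in GA 1 to GA 5. GA 1 and GA 2 were below all PBS libraries, PBS 4 was the highest, and GA 3 to GA 5 lay between. Against PBS the log2 fold change was -0.02 (SE 0.08, 95% interval -0.20 to 0.16, edgeR adjusted p = 0.984). Between the prefixes the log2 difference was 0.26, with 400 the higher (94.9 against 113 CPM, SE 0.11, unadjusted p = 0.0316, edgeR adjusted p = 0.838).

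*Vav1* (chr17:57279100-57328031), which activates Rac GTPases and the actin skeleton, had 697, 654, 694, 702 and 715 CPM in PBS 1 to PBS 5. It had 662, 613, 704, 679 and 710 CPM in GA 1 to GA 5. The lowest was GA 2, and all other GA libraries lay within the PBS range. It was the steadiest of the 8 tested genes, with a coefficient of variation of 4.66% over the 10 libraries, and 1.78% of all tested genes varied less within groups. The log2 fold change was -0.04 (SE 0.06, 95% interval -0.16 to 0.08, edgeR adjusted p = 0.953), and it ran from -0.06 (without PBS 2) to -0.0077 (without GA 2) with 1 library left out.

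The phosphatase *Ptpn6* had 621, 582, 569, 560 and 538 CPM in PBS 1 to PBS 5, and 598, 563, 666, 635 and 619 CPM in GA 1 to GA 5. GA 3 and GA 4 were above every PBS library, and the other 3 GA libraries were not. The means were 574 ± 30.5 and 616 ± 38.8 CPM (SD, n = 5 each). The log2 fold change was 0.10 (SE 0.06, 95% interval -0.03 to 0.24, unadjusted p = 0.118, edgeR adjusted p = 0.895). *Ptpn6* shares 195 exon bases (6.96% of its own) with *Gm20531*, where reads may be assigned to either gene. *Gm20531* itself had 3.78 and 3.75 CPM.

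**Figure D3:**
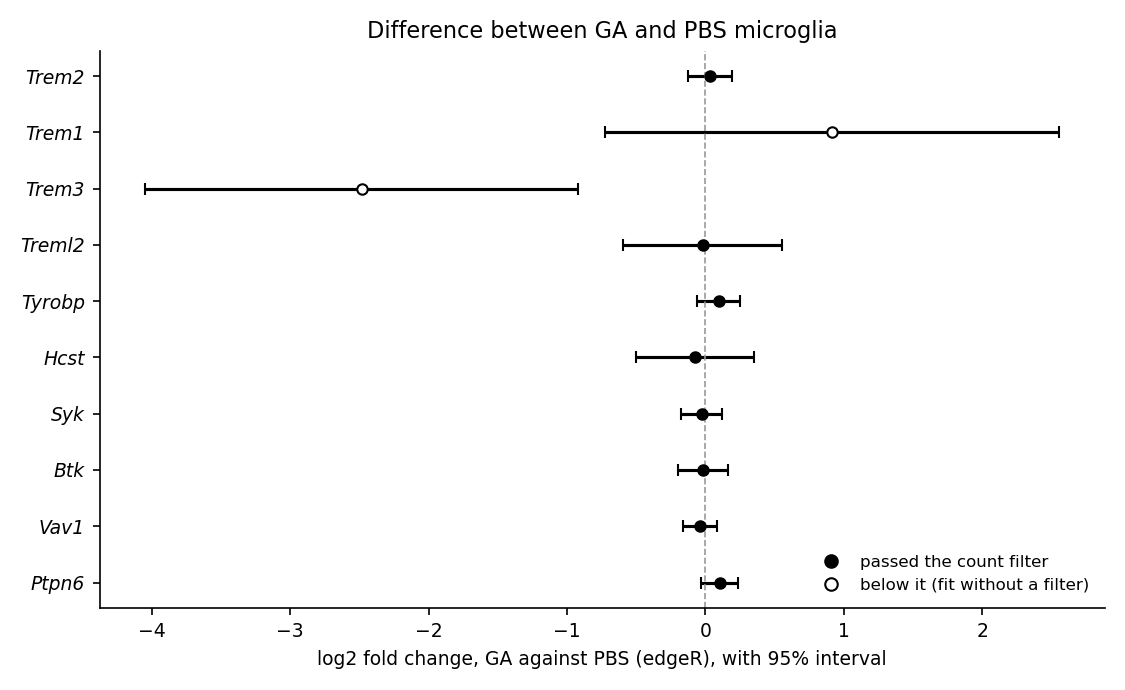
edgeR log2 fold change of GA against PBS (horizontal axis) for each of the 10 genes with its 95% interval. Filled points passed the filter on low counts and lie between -0.07 and 0.10 with intervals across 0, while open points come from the fit without a filter, where the interval of Trem3 lies below 0 (-4.05 to -0.92) and that of Trem1 runs from -0.72 to 2.55.

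To compare the genes with each other, CPM were divided by the length of each gene's exons. *Tyrobp* led with 1537 ± 125 CPM per kb (SD, n = 10), 4.63 times the 332 ± 28.2 CPM per kb of *Trem2*. *Ptpn6* (212 ± 14.2 CPM per kb) and *Vav1* (185 ± 8.64 CPM per kb) followed, and their libraries overlapped. *Btk* (33.9 ± 3.13 CPM per kb), *Syk* (23.8 ± 1.67 CPM per kb) and *Hcst* (11.5 ± 2.83 CPM per kb) each stood apart from the next in all libraries. *Treml2* (1.04 ± 0.34 CPM per kb), *Trem3* (0.246 ± 0.247 CPM per kb) and *Trem1* (0.102 ± 0.099 CPM per kb) formed the bottom, and each overlapped its neighbour. The order of the last pair depended on the group: *Trem3* was at 0.421 ± 0.243 and *Trem1* at 0.0708 ± 0.060 CPM per kb in PBS (SD, n = 5 each). In GA, *Trem3* was at 0.0716 ± 0.041 and *Trem1* at 0.133 ± 0.126 CPM per kb (SD, n = 5 each). With the longest transcript as length the order was the same, but *Btk* (42 CPM per kb) and *Syk* (41.6 CPM per kb) came close together.

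**Figure D4:**
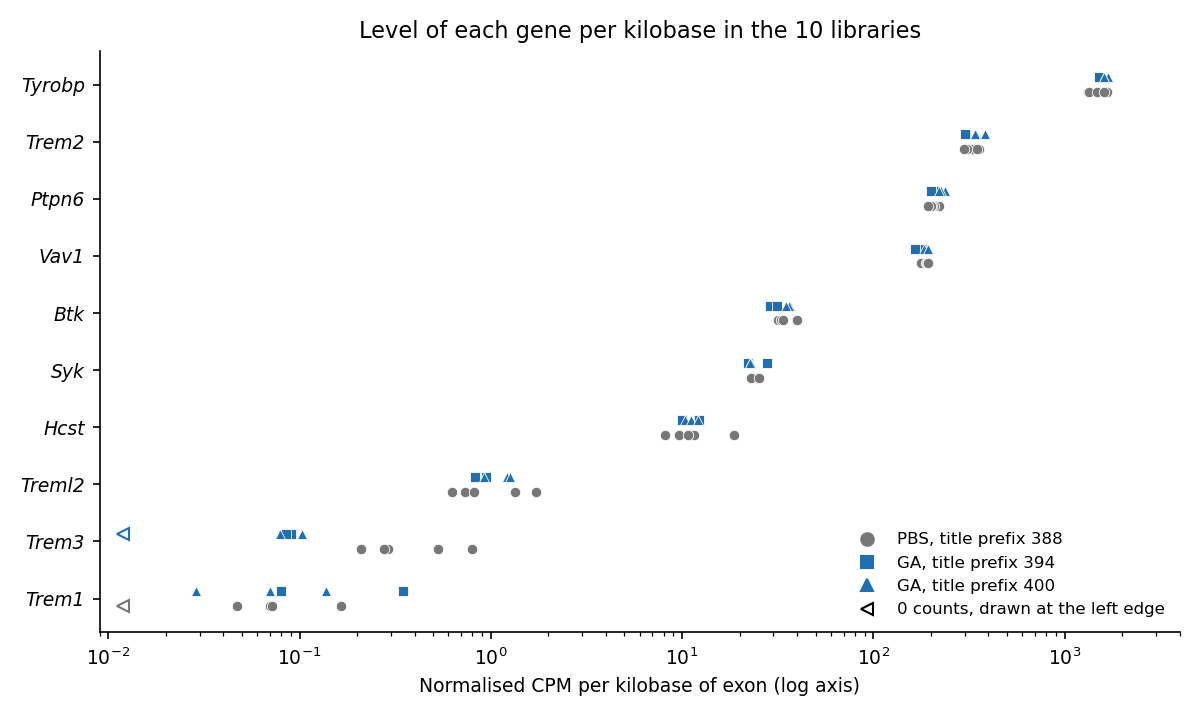
Normalised CPM per kilobase of exon (horizontal log axis) of each gene in the 10 libraries, ordered by mean, with PBS in grey and GA in blue and marker shape by title prefix. Levels run from about 0.102 CPM per kb for Trem1 to 1537 CPM per kb for Tyrobp, and open triangles at the left edge are libraries with 0 reads.

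The 6 family members located in the cluster here are neighbours, yet the mean level per kilobase of *Trem2* was far above that of the other members measured here. RefSeq holds promoter entries (GRCm38.p6) for 7 of the 10 genes, and windows of 300 bases around their starts were searched on both strands for AGGAAGT, a motif of the ETS family to which the myeloid factor PU.1 belongs. The letters were found in 4 of the 7 genes, *Trem1*, *Hcst*, *Vav1* and *Ptpn6*, and in 9.35% of all 32851 promoter windows. *Hcst* holds them at 2 places, from -46 to -40 and from -17 to -11 relative to the start. The window of *Trem2* does not contain AGGAAGT, but holds TGANTCA, a loose form of the AP-1 motif with any middle base, from -9 to -3. It reads TGAATCA there, not the AP-1 forms TGACTCA or TGAGTCA, and TGANTCA was found in 7.81% of all windows. The E-box CACGTG was in none of the 7 genes and in 7.15% of all windows. A match describes letters only. The 250 bases before the start are shown 5′ to 3′ for *Trem2* (chr17:48346151-48346400, plus strand) and *Trem1* (chr17:48232489-48232738, plus strand), the receptor of the cluster with the highest and that with the lowest mean level per kilobase over all 10 libraries. The same is shown for the other genes with a match, *Hcst* (chr7:30419855-30420104, minus strand), *Vav1* (chr17:57278850-57279099, plus strand) and *Ptpn6* (chr6:124738710-124738959, minus strand), with AGGAAGT or its reverse complement in capitals.

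Trem2: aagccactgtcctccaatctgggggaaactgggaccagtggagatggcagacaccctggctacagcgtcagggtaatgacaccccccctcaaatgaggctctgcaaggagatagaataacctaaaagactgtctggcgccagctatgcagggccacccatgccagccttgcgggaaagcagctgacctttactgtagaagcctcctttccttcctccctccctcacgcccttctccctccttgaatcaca

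Trem1: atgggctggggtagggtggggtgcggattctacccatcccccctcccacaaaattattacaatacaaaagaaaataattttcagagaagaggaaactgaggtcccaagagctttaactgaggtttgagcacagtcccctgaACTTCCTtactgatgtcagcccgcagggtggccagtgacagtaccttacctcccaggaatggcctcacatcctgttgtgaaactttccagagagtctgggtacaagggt

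Hcst: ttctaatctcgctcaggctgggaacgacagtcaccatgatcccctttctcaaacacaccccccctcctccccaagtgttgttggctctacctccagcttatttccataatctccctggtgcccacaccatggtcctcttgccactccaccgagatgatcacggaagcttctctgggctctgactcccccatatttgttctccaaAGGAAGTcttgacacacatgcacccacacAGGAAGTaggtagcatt

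Vav1: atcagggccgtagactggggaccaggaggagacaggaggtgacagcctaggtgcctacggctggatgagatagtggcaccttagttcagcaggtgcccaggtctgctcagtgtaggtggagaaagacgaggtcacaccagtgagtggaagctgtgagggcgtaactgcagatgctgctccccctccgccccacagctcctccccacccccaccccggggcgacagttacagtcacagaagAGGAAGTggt

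Ptpn6: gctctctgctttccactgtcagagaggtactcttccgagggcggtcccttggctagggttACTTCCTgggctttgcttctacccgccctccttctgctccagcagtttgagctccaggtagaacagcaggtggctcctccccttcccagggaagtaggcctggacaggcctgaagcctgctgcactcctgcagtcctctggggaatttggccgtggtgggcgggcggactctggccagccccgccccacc

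Ratios of transcripts within a library do not depend on its scaling. The ratio of *Trem2* to *Tyrobp* CPM was 1.86, 1.96, 1.75, 1.36 and 1.38 in PBS 1 to PBS 5, and 1.49, 1.48, 1.7, 1.59 and 1.57 in GA 1 to GA 5. PBS held both the 3 highest and the 2 lowest libraries, with all GA libraries between. On the log2 scale the ratio was 0.72 ± 0.25 in PBS and 0.64 ± 0.08 in GA (SD, n = 5 each), a difference of -0.07 (two-sided exact permutation p = 0.540). The ratio of *Hcst* to *Tyrobp* ran from 0.00667 to 0.0121 in PBS and from 0.00668 to 0.00875 in GA (log2 difference -0.12, exact permutation p = 0.563).

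The ratio of *Syk* to *Ptpn6*, the activating kinase over the opposing phosphatase, was 0.364, 0.376, 0.404, 0.383 and 0.438 in PBS 1 to PBS 5. It was 0.345, 0.460, 0.317, 0.340 and 0.341 in GA 1 to GA 5. GA 2 was the highest of all 10 libraries and the other 4 GA libraries were the lowest of all. The log2 difference was -0.13 (exact permutation p = 0.238), and all 3 ratios had an adjusted p of 0.563. Without GA 2 the difference was -0.22 (exact permutation p = 0.0159, adjusted p = 0.0476), so that 1 library decides this result. With the prefix 394 libraries alone it was 0.02, and with the prefix 400 libraries alone -0.24 (exact permutation p = 0.0357, adjusted p = 0.107).

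**Figure D5:**
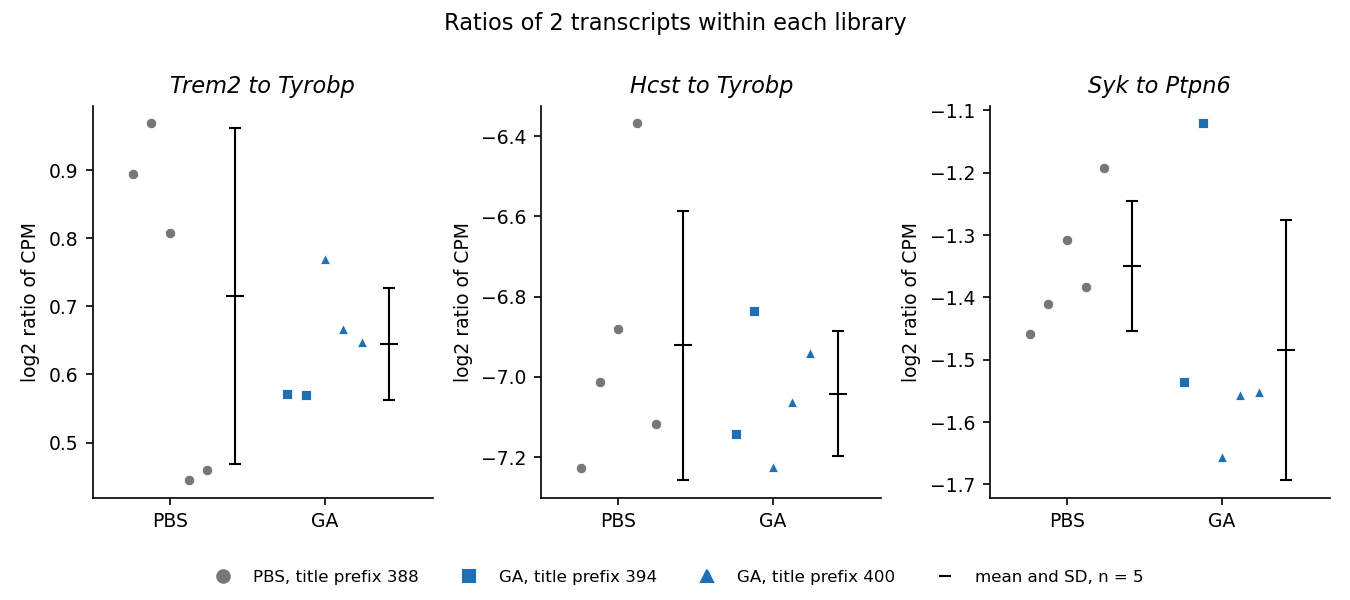
log2 ratio of CPM of Trem2 to Tyrobp, Hcst to Tyrobp and Syk to Ptpn6 (vertical axes, not from 0) in each library, with mean ± SD beside each group and marker shape by title prefix. In the Syk to Ptpn6 panel GA 2 lies at -1.12, above all PBS libraries, and the other 4 GA libraries lie at or below -1.54, below all of them.

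Across the 10 libraries, the 8 tested genes did not vary as 1 unit. Of 28 pairs, 15 had a positive and 13 a negative Pearson correlation of log2 CPM, and 0 had an adjusted p under 0.05. *Trem2* and its adaptor *Tyrobp* showed no correlation past the test (Pearson r = -0.07, permutation p = 0.847; Spearman rho = 0.03, permutation p = 0.947). *Trem2* and *Ptpn6* had r = 0.72 (permutation p = 0.0211, adjusted p = 0.429) and rho = 0.64 (permutation p = 0.0550, adjusted p = 0.514). Their r fell to 0.37 without GA 3 and PBS 5, the 2 libraries farthest from the median of *Trem2*, a choice that also narrows its range. With 1 library left out r ran from 0.54 (without GA 3) to 0.81. *Tyrobp* and its neighbour *Hcst* had r = 0.63 (permutation p = 0.0484, adjusted p = 0.429) and rho = 0.43 (permutation p = 0.219, adjusted p = 0.773), and r was 0.32 without PBS 1 and PBS 2. *Tyrobp* and *Btk* had r = 0.61 (permutation p = 0.0613, adjusted p = 0.429) and rho = 0.77 (permutation p = 0.0127, adjusted p = 0.355), and r was 0.80 without PBS 1 and PBS 2. *Btk* and *Vav1* had r = 0.56 (permutation p = 0.0983, adjusted p = 0.459) and rho = 0.66 (permutation p = 0.0432, adjusted p = 0.514). *Hcst* and *Btk* had r = 0.62 (permutation p = 0.0542, adjusted p = 0.429), which was 0.23 without PBS 4. With group means removed, r was 0.78 for *Trem2* and *Ptpn6*, 0.72 for *Tyrobp* and *Hcst* and 0.73 for *Tyrobp* and *Btk*. With the means of the title prefixes removed, a setting chosen after seeing the data, these were 0.61, 0.76 and 0.74. In that setting r was 0.88 for *Hcst* and *Btk*, 0.08 for *Btk* and *Vav1* and -0.53 for *Trem2* and *Tyrobp*, and 0 pairs had an adjusted p under 0.05.

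By group-centred log2 CPM over the 10 libraries, and as a description with no test, the genes most like *Trem2* were *Rpusd4* (r = 0.93), *Pycard* (r = 0.92) and *Kdelc1* (r = 0.92). Those most like *Tyrobp* were *Cd63* (r = 0.97), *Vkorc1* (r = 0.97) and *Eif3c* (r = 0.96), and those most like *Hcst* were *Rere*, *Ubr4* and *Chtf8* (r = 0.94, 0.94 and 0.93). They are the top of 8691 or 8692 candidates each with a mean of at least 10 CPM.

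No member of the list of other receptors that use TYROBP or HCST passed the test. Of 21 genes, 15 could be tested, 9 higher and 6 lower in GA with a median log2 fold change of 0.04, and 0 had an unadjusted p under 0.05 (edgeR), beside 5.75% of all genes, a share too small to read anything from a count of 0. *Siglech*, a microglial receptor that signals through TYROBP, had 2039 ± 124 CPM in PBS and 2019 ± 113 CPM in GA (SD, n = 5 each). *Pilrb2*, whose reads may be shared with its close copy *Pilrb1*, had the smallest p of the list (log2 fold change -0.86, edgeR unadjusted p = 0.0887). *Siglec15* had 0 reads in all libraries.

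Of 42 kinases, scaffolds and effectors downstream of the adaptors, 41 were tested, 19 higher and 22 lower in GA with a median of -0.0046. None passed after adjustment, and 6 of 41 had an unadjusted p under 0.05, 2 with higher and 4 with lower values in GA, beside 5.75% of all genes. *Sh3bp2*, an adaptor that binds SYK, had 88.0 to 95.2 CPM in PBS and 101 to 109 CPM in GA without overlap (log2 fold change 0.19, SE 0.06, edgeR adjusted p = 0.847). *Card9*, a scaffold that links SYK to NF-κB, had 24.9 ± 6.50 CPM in PBS and 33.4 ± 6.55 CPM in GA (log2 fold change 0.43, edgeR adjusted p = 0.854). Of the 4 genes with lower values in GA, those with the smallest p were *Akt2* (-0.19), the scaffold *Blnk* (-0.18) and *Gsk3b* (-0.25), each with an edgeR adjusted p of 0.854. Relatives of the members had log2 fold changes of 0.06 (*Vav2*), 0.02 (*Tec*, a relative of *Btk*) and 0.02 (*Ptpn11*, a relative of *Ptpn6*), with edgeR adjusted p-values of at least 0.970. *Vav3*, with 3 to 49 reads a library, was at -0.16 with a 95% interval of -1.61 to 1.29.

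All 22 inhibitors of ITAM signalling were tested, 10 higher and 12 lower in GA with a median of -0.03. *Cd300lf*, a receptor with inhibitory motifs, had 9.61 to 12.4 CPM in PBS and 13 to 19.7 CPM in GA without overlap (log2 fold change 0.54, SE 0.14, unadjusted p = 0.00154, edgeR adjusted p = 0.847), and it was the 1 gene of the 22 with an unadjusted p under 0.05, a share near the 5.75% of all genes. The groups did not overlap for 0.891% of all genes. *Inpp5d* (SHIP1), which opposes PI3 kinase below TREM2, had 1303 ± 57.5 and 1330 ± 108 CPM (SD, n = 5 each; log2 fold change 0.03). *Inpp5d* and *Siglech* were named for their roles after their values were seen.

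Of 12 ligands and sheddases of TREM2, 11 were tested, 3 higher and 8 lower in GA with a median of -0.07. Of the 11, 2 had an unadjusted p under 0.05 (edgeR), *Aph1b* and *Psenen*, beside 5.75% of all genes. *Aph1b*, a γ-secretase subunit gene with a close copy that may share its reads, had 1.19 ± 0.42 CPM in PBS and 2.96 ± 1.43 CPM in GA (log2 fold change 1.31, edgeR unadjusted p = 0.00544, adjusted p = 0.847), with GA 1 within the PBS range. The prefix 394 libraries had 0.929 and 2.11 CPM of *Aph1b*, against 3.49 to 4.48 CPM in those of prefix 400. *Psenen*, another subunit of γ-secretase, had a log2 fold change of -0.18 (edgeR unadjusted p = 0.0460, adjusted p = 0.859). The sheddases *Adam10* (0.02) and *Adam17* (-0.0044) had log2 fold changes near 0, and were named after their values were seen.

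Of 24 genes of the Trem2-dependent microglial state, the set that plaque-associated microglia raise in the presence of TREM2, 17 were higher and 7 lower in GA with a median of 0.07, which was 0.02 without PBS 1 and 0.14 without PBS 4. The 3 with an unadjusted p under 0.05, beside 5.75% of all genes, were *Dcstamp* (log2 fold change 0.92), *Csf1* (0.47) and *Cst7* (0.31), with edgeR adjusted p-values of 0.847, 0.847 and 0.854. GA 1 and GA 2, of prefix 394, had *Cst7* at 278 and 281 CPM, within the PBS range of 193 to 315 CPM. The prefix 400 libraries lay above it, at 343 to 423 CPM. *Dcstamp* in GA 1 and *Csf1* in GA 5 were also within the PBS range. For *Dcstamp* the call depends on the tool, since DESeq2 gave an adjusted p of 0.0311, 1 of 20 alternatives, and the lowest adjusted p of the others was 0.188. The study picked *Dcstamp* from these same libraries, so its place in the list is not independent evidence. The paper also reports the rise of *Dcstamp* by RT-PCR on microglial RNA. From published mouse data it proposes that the gene may belong to the profile downstream of *Trem2*. The lipid handling genes *Apoe* (0.15) and *Lpl* (0.04) and the receptors *Axl* (0.17) and *Clec7a* (-0.06) of that state had no unadjusted p under 0.05 (edgeR), and were named after their values were seen. Larger rises, also without such a p, were those of *Dkk2* (0.41), *Lilrb4a* (0.38), *Ch25h* (0.36) and *Igf1* (0.35), and the largest fall was that of *Spp1* (-0.29). Across the 6 lists, 0 genes had an edgeR adjusted p under 0.05.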

How the data were processed

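Hippocampal microglia of GA-treated and PBS-treated 3xTg mice were profiled in 10 RNA libraries (5 per group), preamplified with the SMARTer v4 kit. The authors deposited raw read counts per gene, without normalization, in 1 table of 55453 genes, and 0 of its columns were left without a sample. Per the labels, the submitters' processing notes name bcl2fastq 2.19.0, fastp 0.20.0, STAR 2.7.0f, Subread 1.6.4, featureCounts, DESeq2 and the build GRCm38.p6. The annotation and the use of strand are not given in the sources used here, so reads from genes that overlap on opposite strands may not be told apart. Because amplified copies were not marked by molecular identifiers, floors (3 counts where 0 were seen) cover counting error only.

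Low counts were removed with filterByExpr (min.count 10), which left 14481 genes, against 27564 without a filter. Counts were normalized by TMM and compared with edgeR 4.0.16's quasi-likelihood F-test without a covariate in R 4.3.3, with Benjamini-Hochberg adjustment over all genes. The SE is the log2 fold change over the root of F. Prefixes were compared in a fit with a mean per prefix. For ratios, two-sided exact permutation tests took all arrangements of the libraries (smallest p = 0.00794), and correlations used log2(CPM + 0.1) with 100000 draws, in Python 3.11.15 with numpy 2.4.6 and scipy 1.17.1. Gene models came from GENCODE M21 and promoters from RefSeq. No library copied another (chi-square per degree of freedom 13 to 50.9 over 45 pairs). The scripts were tested on simulated data.

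The alternatives were DESeq2 1.42.0, limma-voom 3.58.1, a robust fit, other scalings and filters, each library left out, either GA prefix alone, and a replicate block. The removal of prefix means from the correlations was added after seeing the data. Lists were described by counts and medians, with no list test. Named were all 10 genes, their tested relatives, list genes with an unadjusted p under 0.05 (at most 5 per list by p, otherwise the smallest), the leading markers (at most 3), and the 3 genes most like Trem2, Tyrobp and Hcst. The members and lists were chosen with earlier results of these data known. Some items are not reported here.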

Additional observations from a re-analysis of the deposited data

Results flagged for a closer look

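Among 26 groups of 5 libraries examined for a library far from the rest, 4 held one, where chance gives about 1 in 20. *Trem3* had 0 CPM in GA 3, against 0.0786 to 0.103 CPM in the other GA libraries, a difference of 3 or 4 reads. *Syk* had 259 CPM in GA 2, against 206 to 216 CPM in the other GA libraries. The log2 ratio of *Syk* to *Ptpn6* in that library was -1.12, against -1.66 to -1.54 in the others, and shares the *Syk* value. *Btk* had 125 CPM in PBS 4, against 100 to 106 CPM in the other PBS libraries. PBS 4 also had the highest *Hcst* value and the highest monocyte and border-associated macrophage marker sums, and the part of these cells in its *Btk* value was not tested.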

How the results depend on the processing

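No adjusted call was made among the 8 genes under any of the 20 alternatives, nor for *Trem1* and *Trem3* under the 17 that could test them, where at most 37 reads a library limit the precision. Over all genes, DESeq2 called 2 genes (*Dcstamp* among them) and leaving out a library 0 to 1 (1 without GA 1). At an unadjusted p under 0.05, 1 of the 8 passed with the prefix 400 libraries alone (*Ptpn6*, log2 fold change 0.16, edgeR unadjusted p = 0.0379, adjusted p = 0.736), beside 6.47% of all genes. Log2 fold changes turned sign with limma-voom for *Treml2* (0.079) and *Hcst* (0.00028), with prefix 394 alone for *Trem2* (-0.10) and *Syk* (0.054), and with prefix 400 alone for *Treml2* (0.12), *Btk* (0.083) and *Vav1* (0.016). With 1 library left out they ran from -0.016 (without GA 3) to 0.068 (without GA 2) for *Trem2*, from -0.16 (without PBS 4) to 0.23 (without PBS 2) for *Treml2*, from -0.18 (without PBS 1) to 0.16 (without PBS 4) for *Hcst* and from -0.048 (without GA 3) to 0.042 (without PBS 4) for *Btk*, crossing 0 in each. The ratio differences then ran from -0.14 to -0.0071 for *Trem2* to *Tyrobp*, from -0.20 to 0.018 for *Hcst* to *Tyrobp* (turned without PBS 4), and from -0.22 to -0.091 for *Syk* to *Ptpn6* (past the threshold without GA 2), and the last was 0.022 with prefix 394 alone. With 1 library left out, list medians ran from -0.32 to -0.12 (cluster), -0.0021 to 0.09 (receptors), -0.02 to 0.02 (effectors), -0.05 to 0.0030 (inhibitors), -0.12 to -0.02 (ligands and sheddases) and 0.02 to 0.14 (plaque-associated state). Between prefixes, 2 genes were called, against 4 with total counts, 81 without a filter and 0 to 7 with 1 library left out (0 without GA 1, 7 without PBS 4). The cause of these shifts was not tested.

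The numbers in the titles do not pair the libraries: same-numbered libraries correlated at -0.12 to 0.05 in their deviations from group means. With the replicate block, 1 of the 8 had an unadjusted p under 0.05 (*Tyrobp*, log2 fold change 0.21, edgeR unadjusted p = 0.00378, adjusted p = 0.705), beside 6.79% of all genes, and *Trem2* (-0.037), *Hcst* (0.23) and *Btk* (0.062) turned sign. *Trem1*, tested without a filter, was then at 1.83 (edgeR unadjusted p = 0.0367, adjusted p = 0.704) and *Trem3* at -1.79.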
